A study of Mus musculus with 6 samples.

Results

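The proteasome is the large protease complex that degrades proteins tagged with ubiquitin, and its genes were followed here in denervated soleus, a slow hindlimb muscle. Members were taken by symbol, as every listed gene named Psma, Psmb, Psmc, Psmd, Psme or Psmf followed only by digits. This found 43 of 21572 listed symbols: 8 core alpha subunits, 6 constitutive core beta subunits, 4 immunoproteasome and thymic beta subunits, 6 ATPases, 3 other base subunits, 8 lid subunits, 3 assembly chaperones, 4 activators and the inhibitor Psmf1. The catalytic subunit gene Psmb5 is listed only under a name joined with a microRNA gene, so the symbol rule did not take it and its values are given beside the members.

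RNA sequencing of polyadenylated RNA gave 6 libraries from adult C57BL/6 mice, in 3 groups of 2. One group was innervated wild-type (WT) soleus, another was WT soleus 3 days after denervation, and the last was soleus of Dach2-/-/Hdac9-/- mice, also 3 days after denervation. Hdac9 encodes a histone deacetylase of class II, and Dach2 a co-factor of transcription. All groups share strain, tissue and the label adult, and innervated Dach2-/-/Hdac9-/- muscle was not analysed here. Nothing in the labels says that the libraries of a group came from separate animals, so p-values reflect only how far these libraries differ, and that spread may be technical. The sample numbers form 2 runs, 14043 to 14045 for the first library of each group and 14049 to 14051 for the second, and the labels do not call these runs batches.

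In a proteasome, rings of alpha and beta subunits form the 20S core, a barrel whose beta subunits carry the proteolytic sites. The 19S cap, made of a base with a ring of ATPases and a lid, binds ubiquitin-tagged proteins, removes the ubiquitin and unfolds the protein into the core. Interferon-inducible beta subunits can replace the constitutive catalytic subunits to form the immunoproteasome, which produces peptides for MHC class I molecules, and the Psme activators can cap the core in place of the 19S cap. In muscle the ubiquitin-proteasome system is known for its role in the breakdown of myofibrillar protein during atrophy. The transcription factor Nrf1, encoded by Nfe2l1, is known to drive proteasome subunit genes through antioxidant response elements in their promoters.

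Total assigned fragments lay between 25529434 and 46305449 a library. Muscle genes identified the tissue: the creatine kinase gene Ckm lay between 3302 and 8812 FPKM over the 6 libraries, although Acta1 was listed at 0 in all of them. FPKM is the authors' measure of fragments per length of transcript, scaled for the library. Dach2 lay at 0.961 and 0.681 FPKM and Hdac9 at 0.534 and 0.181 in the Dach2-/-/Hdac9-/- libraries. In the denervated WT libraries Dach2 lay at 0.519 and 0.536 and Hdac9 at 1.83 and 0.285. In the innervated WT libraries Dach2 lay at 3.85 and 4.29 and Hdac9 at 4.10 and 3.14. Both genes were thus already lower in the denervated WT libraries than in the innervated ones. These values span whole genes and do not check the deletions, so the group is called DKO-labelled. The second denervated WT library stood apart for the proteasome genes, as its values below show.

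Promoter windows, 250 bases before to 50 after a gene's start, were read from RefSeq on build GRCm38.p6 and matched 36 of the 43 members by symbol. Windows of Psma8, Psmb1, Psmb2, Psmb7, Psmc3, Psmd3 and Psmd7 were not used here. The antioxidant response element, spelled TGACNNNGC and searched on both strands, was found in 5 of the 36 (13.9%), those of Psmb6, Psmc6, Psmd12, Psmd9 and Psme4, against 14.0% of 27025 genes with windows of the same length. The CCAAT box, a common promoter element spelled CCAAT, was found in 14 (38.9%) against 41.1% of all genes. An interferon-stimulated response element, spelled as GAAA, any 2 bases and GAAA again, was found in 4 (11.1%; Psmb3, Psmd4, Psmd9 and Psme1) against 3.99%. A gamma-activated sequence, a motif of interferon-responsive promoters spelled TTCNNNGAA, was found in 2 (5.56%; Psmb8 and Psmd2) against 9.55%. These are letter matches and not binding sites. The matches in the windows printed here do not overlap one another.

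The 250 bases before 3 gene starts are shown, each 5′ to 3′ on the gene's strand, with motif matches in capitals. Psmc6 is the called 19S gene that held an antioxidant response element (first base 227 before the start, read on the opposite strand). Psmd4, among the most uniform increases below, held a CCAAT box (opposite strand, first base 95 before the start) and an interferon-stimulated response element (opposite strand, 80 before). Psmb8, an immunoproteasome gene that fell, held a gamma-activated sequence, which reads alike on both strands (first base 97 before the start). The windows lie at chr14:45329574-45329823 on the plus strand (Psmc6), chr3:95042615-95042864 on the minus strand (Psmd4) and chr17:34197945-34198194 on the plus strand (Psmb8).
Psmc6: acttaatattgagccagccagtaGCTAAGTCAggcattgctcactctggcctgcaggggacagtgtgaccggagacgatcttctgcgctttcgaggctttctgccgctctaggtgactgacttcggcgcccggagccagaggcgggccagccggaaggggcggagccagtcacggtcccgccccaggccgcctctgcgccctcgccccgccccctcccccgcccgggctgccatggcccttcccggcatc
Psmd4: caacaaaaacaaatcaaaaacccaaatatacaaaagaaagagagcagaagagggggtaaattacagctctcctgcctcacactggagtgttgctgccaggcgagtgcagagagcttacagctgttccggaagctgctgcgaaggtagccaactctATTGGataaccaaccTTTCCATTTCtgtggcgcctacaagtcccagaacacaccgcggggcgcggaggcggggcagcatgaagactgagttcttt
Psmb8: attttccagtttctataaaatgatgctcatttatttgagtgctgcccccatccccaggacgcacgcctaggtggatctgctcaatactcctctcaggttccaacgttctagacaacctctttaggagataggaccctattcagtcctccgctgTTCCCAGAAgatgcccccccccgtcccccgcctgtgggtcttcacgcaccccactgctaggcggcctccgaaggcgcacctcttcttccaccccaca

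Denervated and innervated WT soleus were compared first, to find which proteasome genes differ after 3 days without a nerve. Of 41 members with a mean FPKM of at least 0.5, 22 rose, 4 fell and 15 did not pass the test (edgeR's quasi-likelihood test, Benjamini-Hochberg adjusted p under 0.05 over 12247 genes). Over all genes tested, 14.4% rose and 14.3% fell. The members that rose were 21 of the 30 tested core and cap subunits and the chaperone Psmd10. The 4 that fell were all 3 tested immunoproteasome beta subunits, Psmb8, Psmb9 and Psmb10, and the activator Psme1.

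All 30 core and cap subunits lay higher in both denervated libraries than in either innervated library, from a log2 change of 0.37 (Psmb7) to 1.55 (Psmd8), with a median of 0.87 against 0.0022 over all genes tested. Their FPKM summed to 2731 and 2990 in the innervated libraries, 4245 and 5437 in the denervated WT libraries, and 4190 and 4706 in the DKO-labelled libraries. Over all 41 tested members, 33 did not overlap and lay higher and 6 did not overlap and lay lower, against 32.7% and 38.5% of all genes. The lowest value of any tested member was 2.43 FPKM, for Psmb9 in the second denervated WT library. The 2 untested members were the testis-expressed alpha subunit Psma8, with 2 to 8 fragments a library, and the thymic beta subunit Psmb11, with 2 to 7.

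**Figure D1:**
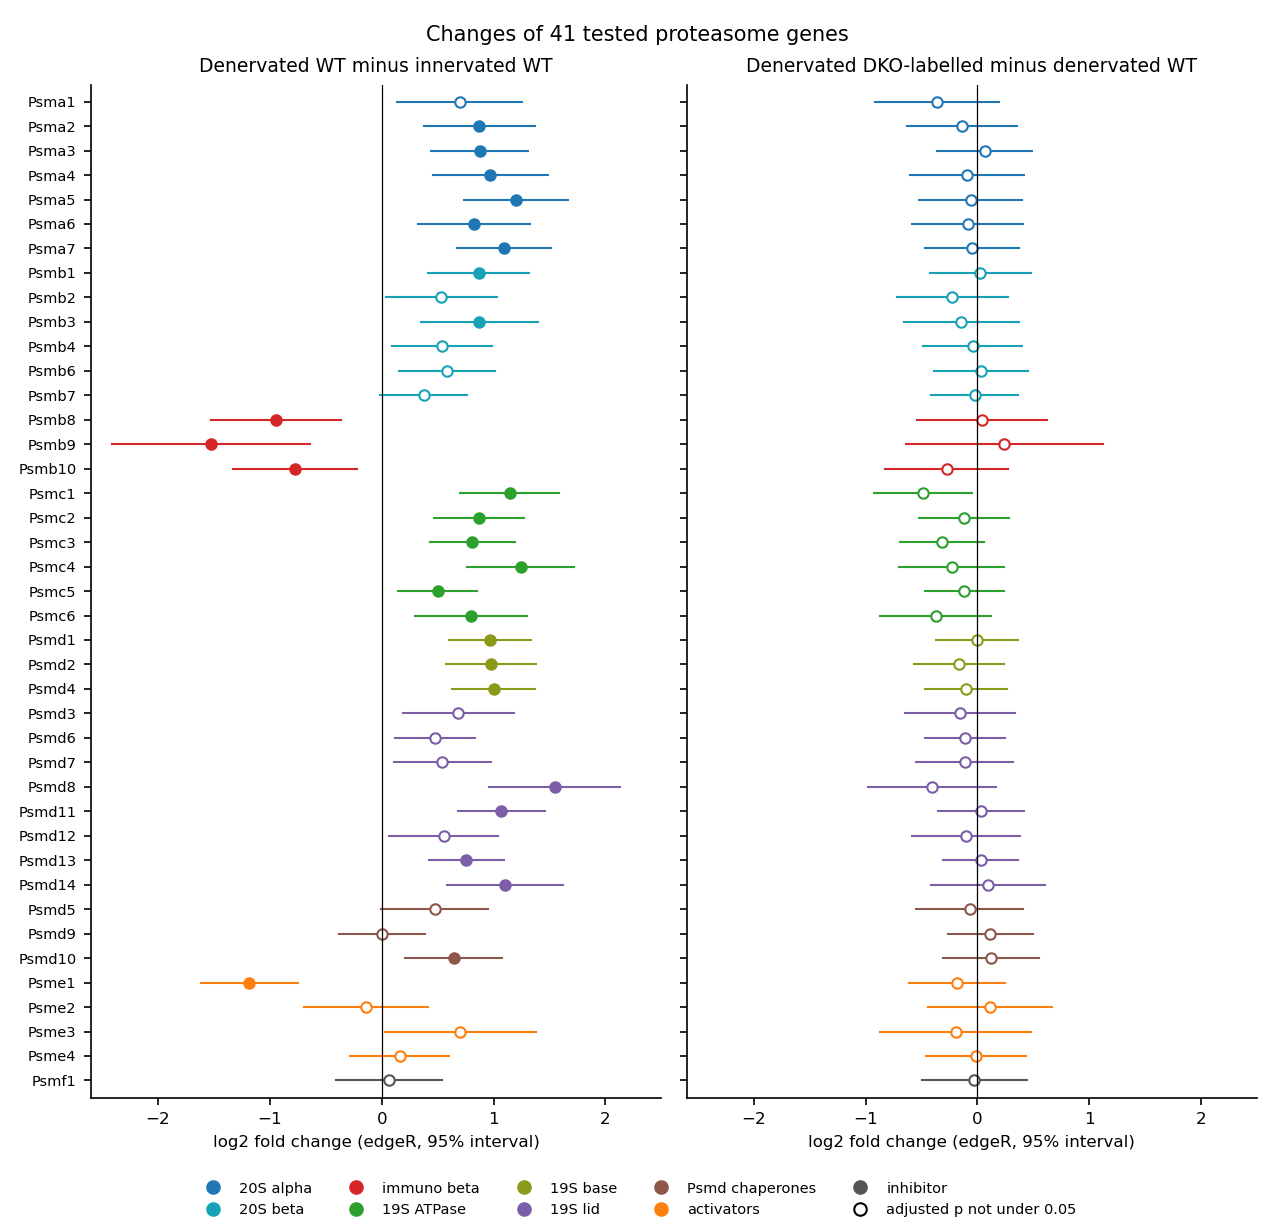
Log2 fold changes of the 41 tested members with 95% intervals from edgeR, denervated minus innervated WT on the left and DKO-labelled minus WT, both denervated, on the right. Filled points have an adjusted p under 0.05. On the left all 30 core and cap subunits lie above 0 and the immunoproteasome subunits and Psme1 below, and on the right no point is filled.

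The size of the increase varied with the library. All 30 core and cap subunits lay higher in the second denervated WT library than in the first. Their median log2 difference was 0.37, against -0.011 over all genes tested. The other groups leaned the same way by less. In the second library 26 of 30 lay higher for innervated WT (median 0.11) and 29 of 30 for DKO-labelled muscle (median 0.19). The medians over all genes tested were 0.014 and 0.00016 for these 2 groups. Within the runs of sample numbers, denervated against innervated, 30 of 30 were higher in each, with medians of 0.72 (first) and 0.99 (second). Without the second denervated WT library the median was 0.67, and fewer of the 30 passed. With either innervated library left out, none of the 30 passed edgeR's adjusted threshold, where 1.45% (without the first) and 0.678% (without the second) of all genes were called higher, although all 30 still lay higher (medians 0.80 and 0.92) and 19 and 23 had an unadjusted p under 0.05. DESeq2, run on all 6 libraries, called 27 of the 30 higher, against 2268 of all 12247 genes.

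Alpha subunits form the outer rings of the core and gate its entrance. Of the 7 tested, 6 rose and Psma1 did not pass. Psma5 (chromosome 3, 108059843 to 108082870 on build mm9; gene positions from the files are on this build and printed as listed) lay at 43.5 and 42.5 FPKM in the innervated libraries, 81.7 and 109 in the denervated WT libraries, and 83.2 and 99.5 in the DKO-labelled libraries. It was the lowest constitutive core gene in both innervated libraries and rose 2.30-fold on denervation, the largest change among the alpha genes (log2 1.20 ± 0.19 SE, edgeR adjusted p = 0.00871). Psma1 lay at 83.5 and 82.5 FPKM in the innervated, 106 and 158 in the denervated WT, and 92.9 and 118 in the DKO-labelled libraries. Its groups did not overlap on denervation, but the denervated WT libraries lay far apart, and its change of 0.70 ± 0.23 did not pass (edgeR adjusted p = 0.0651). DESeq2 and 3 other alternatives called it higher. The other 5 alpha genes rose by log2 0.83 (Psma6) to 1.09 (Psma7).

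Beta subunits form the inner rings. Of the 6 constitutive ones listed under their own symbols, Psmb1 and Psmb3 rose and Psmb2, Psmb4, Psmb6 and Psmb7 did not pass, with a median log2 change of 0.56. With 1 library left out that median lay between 0.41 and 0.73, and the number of these genes that passed depended on the library. Psmb3 lay at 111 and 134 FPKM in the innervated, 175 and 249 in the denervated WT, and 174 and 201 in the DKO-labelled libraries. Its increase of 1.83-fold was the largest of these beta genes (log2 0.87 ± 0.22, edgeR adjusted p = 0.0283), and it did not pass without the second denervated WT library or either innervated one. Psmb7, which carries the trypsin-like site, lay at 256 and 285 FPKM in the innervated, 319 and 359.9 in the denervated WT, and 317 and 358 in the DKO-labelled libraries. Among the constitutive core genes listed under their own symbols it was the highest in all 6 libraries. Its change was the smallest of the 30 (log2 0.37 ± 0.16, edgeR adjusted p = 0.123). Psmb6, which carries the caspase-like site, lay just outside the threshold at 0.58 ± 0.18 (adjusted p = 0.0506).

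Psmb5, which carries the chymotrypsin-like site, was listed with Mir686. The joined entry lay at 793 and 1136 FPKM in the innervated, 1541 and 1968 in the denervated WT, and 1554 and 2040 in the DKO-labelled libraries. It rose 1.97-fold (log2 0.97 ± 0.17, edgeR adjusted p = 0.0107), but its level per length is that of the joined entry and not of Psmb5 alone. RefSeq also lists pseudogenes of Psma5, Psmb5, Psmb6 and Psmb7 and the Psme2 copy Psme2b, none of them in the files, so the values of those 5 members or entries are uncertain where fragments could be shared.

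Subunits of the core join in equal numbers, so the spread of their genes' levels within a library was also read. The joined Psmb5 entry was left out. The 13 tested constitutive core genes spanned a ratio of highest to lowest FPKM of 5.87 and 6.71 in the innervated libraries, 3.93 and 3.58 in the denervated WT libraries, and 3.81 and 3.60 in the DKO-labelled libraries. Psmb7 was highest in every library, and Psma5 was lowest except in the denervated WT libraries, where Psma3 was at 81.1 and 101 FPKM. The 17 cap genes spanned 3.4 and 3.5 (innervated), 3.4 and 4.2 (denervated WT) and 2.7 and 2.9 (DKO-labelled). For the 8 lid genes the ratios were 2.7 and 3.1, 3.4 and 4.2, and 2.7 and 2.8 in the same order. For the 7 alpha genes alone they were 2.8 and 3.1, 2.9 and 2.9, and 2.8 and 2.7. The narrower span in denervated WT was thus not shared by every subcomplex. These ratios are within a library and compare genes per length, and they were given no test.

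**Figure D2:**
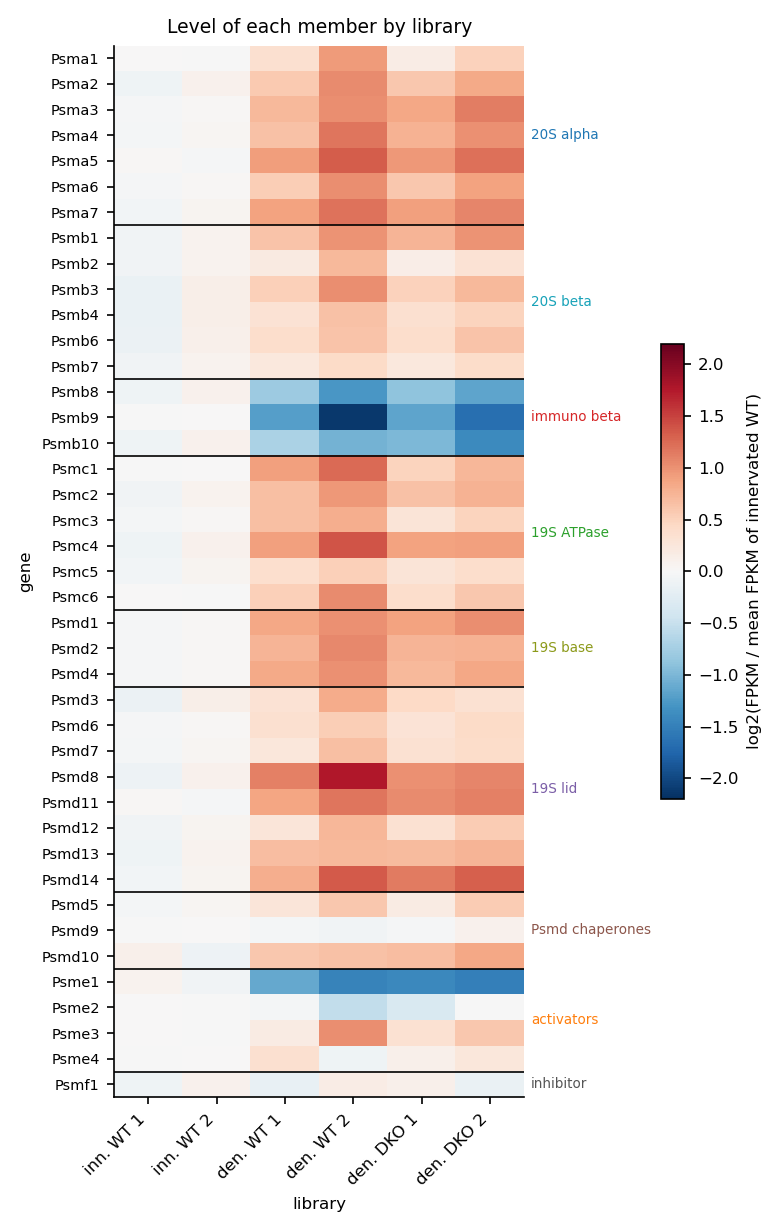
Level of each of the 41 tested members in each of the 6 libraries, as log2 of its FPKM over its mean in the innervated WT libraries (colour), with members in rows by subcomplex. Core and cap rows are higher in all 4 denervated libraries and highest, for most, in the second denervated WT library, while the immunoproteasome rows and Psme1 are lower.

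ATPases of the 19S base unfold proteins and open the core. All 6 rose, at a median log2 change of 0.84. Psmc4 lay at 55.3 and 63.0 FPKM in the innervated, 109.9 and 153 in the denervated WT, and 109 and 111 in the DKO-labelled libraries. It rose 2.37-fold (log2 1.24 ± 0.20, edgeR adjusted p = 0.00843), and the innervated libraries did not overlap with any of the other 4. Psmc5 lay at 95.2 and 102 FPKM in the innervated, 128 and 142 in the denervated WT, and 119.7 and 129.8 in the DKO-labelled libraries. Its increase of 1.42-fold was the smallest of the ATPases (log2 0.50 ± 0.15, edgeR adjusted p = 0.0460), and the call was lost in 9 of 15 alternatives. Psmc6 rose 1.74-fold (log2 0.80 ± 0.21, adjusted p = 0.0324), a call lost in 6 alternatives, among them the fits without the second denervated WT library, either innervated or either DKO-labelled library.

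Base subunits without ATPase activity are scaffolds and ubiquitin receptors, and all 3 rose by nearly the same amount. Psmd4, a ubiquitin receptor, lay at 124 and 127 FPKM in the innervated, 222 and 250.3 in the denervated WT, and 205 and 227 in the DKO-labelled libraries. It rose 2.0-fold (log2 1.0 ± 0.15, edgeR adjusted p = 0.00771). The scaffold Psmd1 lay at 53.5 and 55.2 FPKM in the innervated, 98.5 and 109 in the denervated WT, and 101 and 111 in the DKO-labelled libraries, a 1.96-fold increase (log2 0.97 ± 0.15, edgeR adjusted p = 0.00815). For both genes the libraries of a group lay close together, and the 2 runs gave 0.92 and 1.08 for Psmd4 and 0.90 and 1.03 for Psmd1. The scaffold Psmd2 rose by 0.98 on the log2 scale.

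Lid subunits surround the enzyme that cuts ubiquitin from the substrate, Psmd14. Of 8 lid genes, Psmd8, Psmd11, Psmd13 and Psmd14 rose and Psmd3, Psmd6, Psmd7 and Psmd12 did not pass. The median log2 change of the 8 was 0.72, and 0.57 to 0.84 with 1 library left out. The number that passed depended on the library. Psmd8 (chromosome 7, 29959205 to 29965692) lay at 96.2 and 112 FPKM in the innervated, 224 and 353 in the denervated WT, and 209 and 219 in the DKO-labelled libraries. It rose 2.92-fold, the most of all members (log2 1.55 ± 0.24, edgeR adjusted p = 0.00809), and the second denervated WT library held its highest value, with changes of 1.28 and 1.75 in the 2 runs. Psmd6 lay at 90.2 and 93.0 FPKM in the innervated, 116 and 133 in the denervated WT, and 112 and 123 in the DKO-labelled libraries. Its change of 0.48 ± 0.15 was the smallest of the lid and lay just outside the threshold (edgeR adjusted p = 0.0546), as did that of Psmd3 (0.68, adjusted p = 0.050006).

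**Figure D3:**
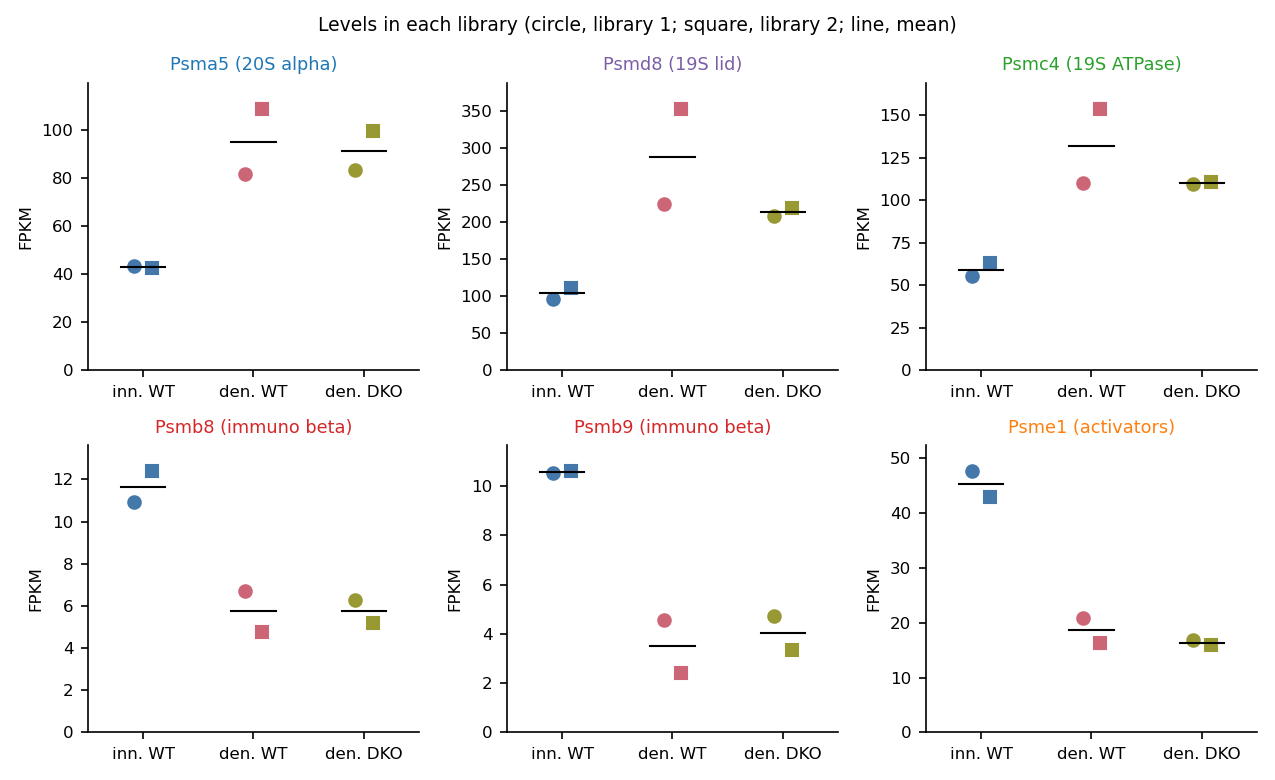
FPKM of 6 members in each library (circles, first library of a group; squares, second; lines, means; linear axes from 0). Psma5, Psmd8 and Psmc4 are higher and Psmb8, Psmb9 and Psme1 lower in all 4 denervated libraries than in both innervated ones.

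The immunoproteasome beta subunits moved the other way. Psmb9, which replaces Psmb6, lay at 10.5 and 10.6 FPKM in the innervated, 4.56 and 2.43 in the denervated WT, and 4.71 and 3.35 in the DKO-labelled libraries. It fell 2.87-fold on denervation (log2 -1.52 ± 0.37, edgeR adjusted p = 0.0267), a call lost only without either innervated library among the 15 alternatives. Psmb8, which replaces Psmb5, lay at 10.9 and 12.4 FPKM in the innervated, 6.72 and 4.78 in the denervated WT, and 6.30 and 5.18 in the DKO-labelled libraries. It fell 1.92-fold (log2 -0.94 ± 0.24, adjusted p = 0.0319), lost in 6 alternatives: the fit of the 4 WT libraries alone and those without the second denervated WT, either innervated or either DKO-labelled library. Psmb10, which replaces Psmb7, lay at 14.0 and 15.9 FPKM in the innervated, 9.31 and 7.25 in the denervated WT, and 7.59 and 5.65 in the DKO-labelled libraries. It fell 1.71-fold (log2 -0.77 ± 0.23, adjusted p = 0.0482), a call near the threshold that was lost in those 6 alternatives, with upper-quartile scaling and with no filter on low values. All 3 lay lower in every fit run. In both denervated groups all 3 lay lower in the second library than in the first, whereas the core and cap genes lay higher in the second library for 30 of 30 in the denervated WT and 29 of 30 in the DKO-labelled group.

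Within a library, Psmb9 was 8.68% and 7.40% of the Psmb6 level in the innervated, 2.63% and 1.19% in the denervated WT, and 2.73% and 1.64% in the DKO-labelled libraries. Psmb10 was 5.49% and 5.59% of the Psmb7 level in the innervated, 2.92% and 2.01% in the denervated WT, and 2.40% and 1.58% in the DKO-labelled libraries. Psmb8 was 1.38% and 1.09% of the joined Psmb5 entry in the innervated, 0.436% and 0.243% in the denervated WT, and 0.406% and 0.254% in the DKO-labelled libraries. Both libraries of each denervated group lay below both innervated libraries for each ratio, and the denervated WT and DKO-labelled libraries overlapped for all 3. With 2 libraries against 2, an exact permutation test cannot give a p under 0.33, so none was used.

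**Figure D4:**
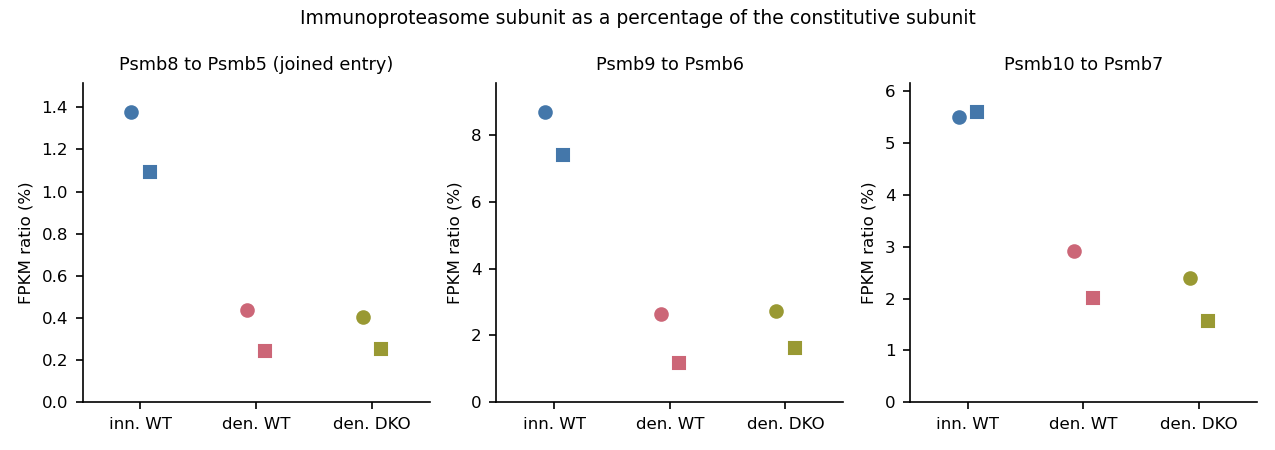
FPKM of each immunoproteasome subunit as a percentage of the FPKM of the constitutive subunit it replaces, in each library (circles, first library of a group; squares, second; axes from 0). In each panel the 4 denervated libraries lie below both innervated libraries.

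Psmb9 (chromosome 17, 34319043 to 34324275) and Psmb8 (34335139 to 34338399) lie on either side of the peptide transporter gene Tap1, with their listed ends and starts 225 and 969 bases apart. Tap1 lay at 3.28 and 2.77 FPKM in the innervated, 1.46 and 0.794 in the denervated WT, and 1.56 and 0.808 in the DKO-labelled libraries. Its log2 change of -1.33 did not pass (edgeR adjusted p = 0.0560), and 7 of 14 alternatives called it lower. Another list held 8 tested genes of peptide loading, MHC class I and the interferon factors that act on immunoproteasome genes. Of these, 5 fell, against 14.3% of all genes, and the others did not pass, at a median of -1.05. The interferon factor gene Irf1 fell 2.42-fold (edgeR adjusted p = 0.0319), and the class I heavy chain H2-K1 fell 2.25-fold (adjusted p = 0.00996). The Irf1 call was lost without the second denervated WT library, and both calls were lost without either innervated library. The class I light chain B2m fell by 0.94 on the log2 scale, and the loading factor Tapbp fell by 0.82, a call lost in 8 of 15 alternatives.

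Markers of other cell types and of muscle fibres were read beside these genes, and the lists did not all move in the same direction. Over all genes tested, 14.4% rose and 14.3% fell. Of 8 tested endothelial markers, 7 fell and Vwf did not pass, and the list summed to 123 and 148 FPKM in the innervated, 65.5 and 55.0 in the denervated WT, and 68.35 and 45.3 in the DKO-labelled libraries. Of 16 tested leukocyte markers, Cd68, S100a8 and Itgax rose and 13 did not pass, with sums of 315 and 215, 402 and 353, and 466 and 336 FPKM in the same order. The 3 of 16 are near the 14.4% of all genes that rose. The median log2 change of the 16 was 0.40, with 14 above 0 and 2 below. The lymphocyte markers on that list lay at or below 0.218 FPKM in every library. Of 8 fibroblast markers 2 fell, and of 8 Schwann cell markers 5 fell and 1 rose. The endothelial count was 2 without the first innervated or the second denervated WT library and 0 without the second innervated library, and the fibroblast count ran from 0 to 7 with 1 library left out. Without the first and second innervated library, 1 and 0 leukocyte markers rose and 2 and 1 Schwann cell markers fell. Of 9 tested muscle fibre genes, 5 fell in each denervated group against innervated WT, and none fell in denervated WT without either innervated library. These genes summed to 30992 and 36113 FPKM in the innervated, 15747 and 13949 in the denervated WT, and 12359 and 13243 in the DKO-labelled libraries. The part of these cells in the immunoproteasome and core values was not tested, and in whole muscle fewer cells of a type and less RNA per cell cannot be told apart.

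Activators were mixed. Psme1 and Psme2 encode the paired subunits of the interferon-inducible activator that caps the core, and their genes lie 2185 bases apart on chromosome 14 (56197330 to 56204091 and 56206276 to 56209938). Psme1 lay at 47.6 and 42.8 FPKM in the innervated, 20.8 and 16.4 in the denervated WT, and 16.9 and 15.9 in the DKO-labelled libraries. It fell 2.27-fold (log2 -1.18 ± 0.18, edgeR adjusted p = 0.00745), lost only without either innervated library among the 15 alternatives. Psme2 lay at 20.3 and 20.1 FPKM in the innervated, 19.5 and 13.9 in the denervated WT, and 16.0 and 20.1 in the DKO-labelled libraries. Its change was -0.14 ± 0.23 (edgeR adjusted p = 0.670, 95% interval -0.70 to 0.42), and it turned to 0.08 without the second denervated WT library. As a share of Psme2, Psme1 was 234.5% and 213% in the innervated, 107% and 118% in the denervated WT, and 105% and 79.1% in the DKO-labelled libraries, a ratio added after its values were seen.

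Psme3, the nuclear activator, lay at 29.8 FPKM in both innervated libraries, 33.7 and 60.8 in the denervated WT, and 37.7 and 44.9 in the DKO-labelled libraries. Its change of 0.70 ± 0.28 did not pass (edgeR adjusted p = 0.104), and the 2 runs gave 0.20 and 1.08. Psme4, the large nuclear activator that binds the core as a single chain, lay at 30.5 and 30.8 FPKM in the innervated, 39.1 and 28.8 in the denervated WT, and 33.0 and 36.5 in the DKO-labelled libraries. Its change of 0.16 ± 0.19 did not pass (adjusted p = 0.536), and the innervated values lay between those of the denervated WT libraries. The inhibitor Psmf1 lay between 4.78 and 5.96 FPKM in all 6 libraries, at 0.07 ± 0.20 (adjusted p = 0.818, 95% interval -0.41 to 0.54). The summed activator level was 128 and 123.5 FPKM in the innervated, 113 and 119.8 in the denervated WT, and 104 and 117 in the DKO-labelled libraries.

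Chaperones that build the base of the cap, and leave the finished complex, are encoded by Psmd5, Psmd9 and Psmd10. Psmd10 lay at 9.27 and 7.95 FPKM in the innervated, 13.0 and 13.5 in the denervated WT, and 13.7 and 15.5 in the DKO-labelled libraries, a 1.56-fold increase (log2 0.64 ± 0.18, edgeR adjusted p = 0.0405) that was lost in 7 alternatives. Psmd5 lay at 12.7 and 13.3, 15.7 and 19.6, and 14.7 and 19.2 FPKM in the same order, with 0.47 ± 0.20 (adjusted p = 0.118). Psmd9 lay between 6.27 and 7.02 FPKM in all 6 libraries, with 0.01 ± 0.16 on denervation (adjusted p = 0.984), a sign that other scalings turned. Of 5 other assembly factor genes none passed edgeR's adjusted threshold, 3 had an unadjusted p under 0.05, near the 43.9% of all genes, and DESeq2 called 2 higher. The core assembly factor Pomp lay at 171 and 176 FPKM in the innervated, 175 and 172 in the denervated WT, and 152 and 182 in the DKO-labelled libraries, with 0.05 ± 0.15 (adjusted p = 0.812).

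Other genes of the pathway were read from lists of proteasome-associated factors, the Nrf1 axis, and ubiquitin and its activating enzymes. Of 16 associated genes, 8 rose, against 14.4% of all genes, and the other 8 did not pass, at a median log2 change of 0.35. The count was 5 without the second denervated WT or either DKO-labelled library and 0 without either innervated library. The largest increases were those of Zfand2a, a stress-induced proteasome-associated factor (2.49-fold, edgeR adjusted p = 0.0152), the substrate shuttle Rad23b (2.23-fold, adjusted p = 0.0177) and the deubiquitinase Usp14 (1.96-fold, adjusted p = 0.0125). The Nrf1 axis list covers the factor, its partners and the machinery that processes it. Among its 13 tested genes, 4 rose and 1 fell, against 14.4% and 14.3% of all genes. Ufd1l, Nploc4 and Vcp, which extract proteins from membranes as a complex, rose 2.25-fold, 1.97-fold and 1.62-fold (adjusted p = 0.00914, 0.0182 and 0.0218). Btrc, a ubiquitin ligase subunit, fell 1.67-fold (adjusted p = 0.0251). The calls of these 7 named genes were lost without either innervated library and in no other alternative.

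Nfe2l1 itself lay at 236 and 318 FPKM in the innervated, 178 and 189 in the denervated WT, and 161 and 169 in the DKO-labelled libraries. Its log2 change was -0.52 ± 0.20 in denervated WT (edgeR adjusted p = 0.0894). The related factor gene Nfe2l2 lay at 20.6 and 24.5 FPKM in the innervated, 25.5 and 27.2 in the denervated WT, and 35.5 and 45.1 in the DKO-labelled libraries, with 0.27 ± 0.18 in denervated WT (adjusted p = 0.280). Of 6 genes of ubiquitin and its activating enzymes, Rps27a, which encodes ubiquitin fused to a ribosomal protein, rose 2.54-fold (adjusted p = 0.00514), and the activating enzymes Uba6 and Uba1 rose 1.70-fold and 1.53-fold (adjusted p = 0.0283 and 0.0420). The Rps27a call was lost without either innervated library. The Uba6 call was lost in 6 alternatives and the Uba1 call in 9, the fits without the second denervated WT or either innervated library among both.

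**Figure D5:**
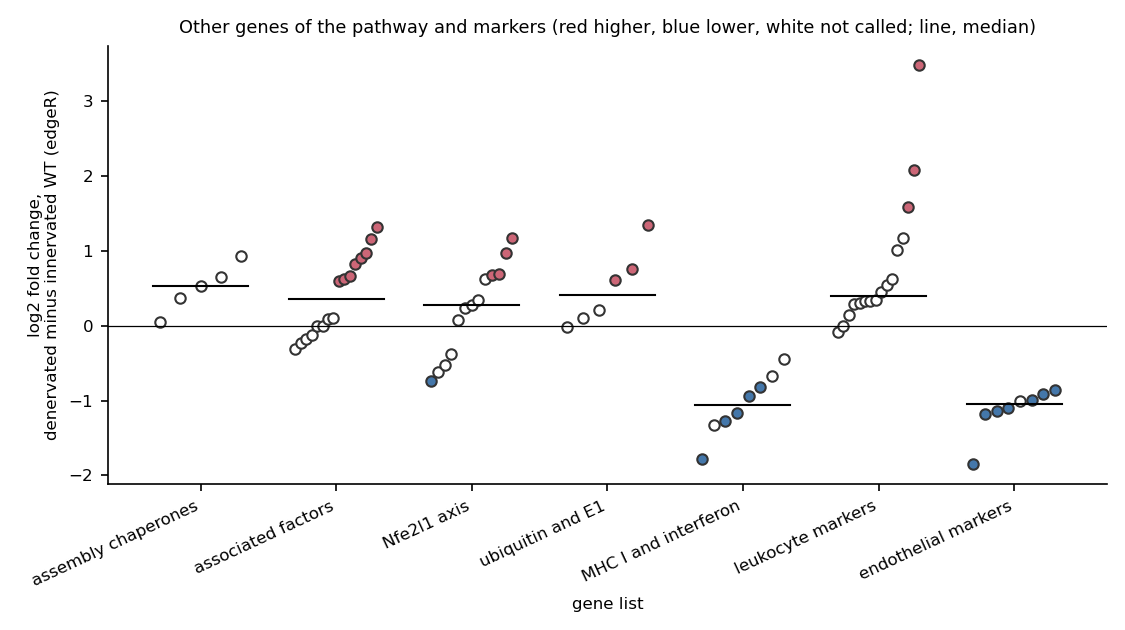
Log2 fold changes of the tested genes of 5 other pathway lists and of the leukocyte and endothelial markers, denervated minus innervated WT (filled points, edgeR adjusted p under 0.05; lines, medians). Proteasome-associated genes that passed lie above 0, and the peptide loading and interferon genes that passed lie below 0.

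Denervated DKO-labelled and denervated WT soleus were compared next, the comparison meant to find genes that depend on Dach2 and Hdac9. Dach2 and Hdac9 themselves were already lower in the denervated than in the innervated WT libraries. None of the 41 members passed in either direction, against 0.0408% of all genes in either direction (edgeR, adjusted p from 0.761 to 1). DESeq2 and every other alternative also called 0 members. At an unadjusted p under 0.05 there was 1, the ATPase Psmc1, fewer than the 6.11% of all genes. It lay at 76.9 and 77.8 FPKM in the innervated, 144 and 184 in the denervated WT, and 109 and 128 in the DKO-labelled libraries. The DKO-labelled values lay between the other groups, at -0.49 ± 0.18 against denervated WT (95% interval -0.92 to -0.05, adjusted p = 0.761).

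The median over the 41 members was -0.09, against -0.02 over all genes. Of the 41, 30 lay lower (20 with quantile normalization), against 6559 of all 12247 genes. Both DKO-labelled libraries lay below both denervated WT libraries for Psmc1, Psmc3 and Psmd8 and above them for Psmd9 and Psmd10, and the other 36 overlapped, while 15.1% of all genes lay lower and 14.7% higher without overlap. All 6 ATPases lay lower in DKO-labelled muscle under every scaling tried, at a median of -0.27, but 4 of 6 did without the second denervated WT library. They included Psmc3 at -0.32 ± 0.16 (edgeR adjusted p = 0.886) and Psmc6 at -0.37. The 95% intervals of the 41 changes reached from -0.98 (Psmd8) to 1.12 (Psmb9). The direction depended on the library: core and cap genes were higher in the DKO-labelled library for 17 of 30 in the first run (median 0.02) and for 3 of 30 in the second (median -0.18). Without the second denervated WT library the median over the members was 0.08. H2-K1, of the peptide loading list, lay at 37.0 and 34.3 FPKM in the DKO-labelled libraries against 10.8 and 7.82 in denervated WT, a log2 difference of 1.99 ± 0.20 that lay just outside the threshold (edgeR adjusted p = 0.0520) and passed it in 6 of 15 alternatives.

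The DKO-labelled libraries were also set against the innervated WT libraries, which both denervation comparisons share, so the 2 sets of values are not independent. Of the 41 members, 20 rose, 4 fell and 17 did not pass, against 15.2% and 16.2% of all genes. Core and cap subunits rose at 19 of 30 with a median of 0.74, and all 30 again lay above both innervated libraries, against 36.4% of all genes. By subcomplex, 6 of 7 alpha, 3 of 6 beta, 3 of 6 ATPase, 3 of 3 base and 4 of 8 lid genes rose. Psmd14 rose most, from 36.0 and 39.5 FPKM in the innervated to 83.4 and 94.3 in the DKO-labelled libraries (2.30-fold, log2 1.20 ± 0.22, edgeR adjusted p = 0.00978), where denervated WT held 65.3 and 95.8. Psma5 rose by 1.14 ± 0.19 (adjusted p = 0.00842). Psmb6 passed here (0.62 ± 0.18, adjusted p = 0.0410, lost in 6 alternatives), while Psmc3, Psmc5 and Psmc6 did not (adjusted p = 0.0549, 0.0897 and 0.158). Between the genotypes each ATPase gene was tested separately above and none passed, and the ATPases were not tested as a group.

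Psmb8, Psmb9, Psmb10 and Psme1 fell in DKO-labelled muscle too, at -0.90 ± 0.24, -1.28 ± 0.37, -1.05 ± 0.23 and -1.36 ± 0.18 on the log2 scale (edgeR adjusted p = 0.0343, 0.0407, 0.0185 and 0.00412). In denervated WT the same genes were at -0.94, -1.52, -0.77 and -1.18. Of the 8 tested peptide loading, MHC class I and interferon genes, 4 fell, against 16.2% of all genes. H2-K1 rose here (log2 0.82), the only one of the 8 called higher, although it fell in denervated WT (log2 -1.17). Without the first and second DKO-labelled library, all 30 core and cap genes still lay higher, at medians of 0.83 and 0.61. In the same 2 fits Psmb8, Psmb9 and Psmb10 still lay lower, at medians of -1.27 and -0.86. Far fewer core and cap genes, and fewer immunoproteasome genes, passed in either fit than with all libraries. The Psmb8 and Psmb9 calls were each lost in 5 of 15 alternatives, upper-quartile scaling among them, and the Psmb10 call in 3. Without either innervated library none of the 41 members rose and Psme1 fell, where 2.46% and 2% of all genes were called higher. In those last fits 14 and 17 of the 30 core and cap genes had an unadjusted p under 0.05. Nfe2l1 fell in this comparison (-0.64, edgeR adjusted p = 0.0490) and Nfe2l2 rose (0.86, adjusted p = 0.0156). The first call was lost in 5 alternatives, among them each fit without an innervated or DKO-labelled library, and the second without the second DKO-labelled or either innervated library.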

How the data were processed

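Polyadenylated RNA of 6 soleus libraries was read from 1 deposited table each. Per the submitters' processing notes, the files were made on build mm9 with the aligners TopHat2 2.0.3 and Bowtie2 2.0.0.7, with Cuffdiff 2.0.2, and with CASAVA 1.8.2 and Trim Galore 0.2.1. How each was run, which annotation was used and whether strand was used were not given in the sources used here. The tables hold, per the file headers, FPKM, a signal of externally scaled fragments (not used) and raw fragments, which are estimated counts (88.4% to 89.0% of values whole within 1e-06). How the authors split fragments between near copies is not stated. The 65415 lines of each library held 21792 distinct entries, and repeats were dropped. Entries of the same symbol were summed, which gave 21572 symbols.

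Groups came from titles, which carry no replicate numbers, so libraries were numbered in accession order. Counts differed between the 2 libraries of a group beyond counting error (chi-square per degree of freedom over all genes tested 37.3, 198 and 76.8). edgeR 4.0.16 in R 4.3.3 (quasi-likelihood, TMM) was fitted to fragments rounded to whole numbers, over all 6 libraries and 12247 genes with a mean FPKM of at least 0.5, and was tested on simulated data. Tests were two-sided at a Benjamini-Hochberg adjusted p under 0.05. The SE is the change divided by the square root of F, with 3 residual degrees of freedom and a common coefficient of biological variation of 0.222. DESeq2 1.42.0, limma 3.58.1 on log2(FPKM + 0.5 or 1), which were log2 values computed here from deposited FPKM, other filters and scalings, the runs as a block and fits without each library were alternatives, 15 in all.

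The members and lists were chosen with earlier results of these data known. In each subcomplex the genes of largest and smallest change, all immunoproteasome, activator and chaperone genes and every called decrease are given by library. Up to 3 called genes a list and direction were named in other lists, with Nfe2l1, Nfe2l2 and Pomp; some genes that this rule names are not reported here. Other names, the CCAAT and interferon motifs, the Psmd4 and Psmb8 windows and the Psme1 ratio were chosen after values were seen. Protein sequences were not used here.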

Additional observations from a re-analysis of the deposited data

How the results depend on the processing

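Of 15 alternatives, none changed the direction of the 30 core and cap genes or of Psmb8, Psmb9 and Psmb10 in either denervated group against innervated WT, and none called a member in DKO-labelled against denervated WT. The counts depended on single libraries. With 1 library left out, members that rose on denervation of WT muscle numbered 0 to 32 (22 with all libraries) and those that fell 0 to 4 (4 with all), both at 0 without either innervated library. The count that fell was 2 in the fit of the 4 WT libraries alone. The median change of the members was 0.51 to 0.90 when 1 library was left out. For DKO-labelled against denervated WT that median was -0.20 to 0.078. For DKO-labelled against innervated WT, 0 to 27 rose and 1 to 4 fell with 1 library left out, and 2 fell with upper-quartile scaling. When a group is left with 1 library, that library is assumed to vary like the other groups.

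Signs that turned belonged to changes that did not pass. For Psmd9 on denervation of WT muscle the change was -0.046 with upper-quartile scaling, -0.0555 and -0.0517 in limma with a pseudocount of 0.5 and 1, -0.030 with quantile normalization, -0.049 with the stricter filter (mean FPKM of at least 2), and -0.010 to 0.014 with 1 library left out. Pomp was at -0.0017 with the stricter filter. With 1 library left out the changes ranged from -0.42 to 0.083 (Psme2), -0.081 to 0.36 (Psme4), -0.11 to 0.21 (Psmf1) on denervation of WT muscle, and from -0.13 to 0.77 (Psmb9), -0.25 to 0.039 (Psmc2), -0.45 to 0.039 (Psmc4), -0.34 to 0.0018 (Psme1) in DKO-labelled against denervated WT. These 4 are examples, and many other members turned sign in that last comparison. Among them were Psmd1, in 7 of 15 alternatives, and Psme4, in 6. In DKO-labelled against innervated WT, Psmf1 turned in 4 and Psme2 in 2.

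With the 2 runs as a replicate block, 30 members rose and 4 fell on denervation of WT muscle (8 of 8 lid and 5 of 6 constitutive beta genes among them), and 22 rose and 4 fell in DKO-labelled against innervated WT. Over all 12247 genes that fit called 2134 higher and 2327 lower in the first comparison, and 2244 and 2463 in the second. The differences between the 2 libraries of a group correlated across genes, which are not independent replicates, at 0.228, 0.153 and 0.455 between groups. The labels do not say that the runs pair libraries. Precision is limited by having 2 libraries a group.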
